A study of Mus musculus with 4 samples.

Results

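The mitosis genes described here encode the machinery that condenses chromosomes, attaches them to the spindle, separates them and divides the cell. They are 54 genes named by function: mitotic kinesins, the mitotic kinases and cyclins, the spindle checkpoint, the proteins that start anaphase, the chromosomal passenger complex, centromere and kinetochore proteins, condensin I with other chromosome proteins, and proteins of spindle assembly and cytokinesis. A gene was measured by its probe sets on an Affymetrix array, taking probe sets annotated with that symbol alone and, where a gene had several, the brightest on average across the arrays. This gave values for 48 of the 54 genes, among 18782 genes in all. Kif20a, Kifc1, Ube2c, Cenpk and Nusap1 had only probe sets named for 2 genes, and Ccnb1 had no probe set under its symbol in the annotation, so these 6 were not analysed here.

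The cells were alveolar macrophages, the resident macrophages of the lung airspaces, sorted by flow cytometry from adult mice of C57BL/6 background. KO mice carried floxed alleles of Pparg, which encodes the lipid-sensing nuclear receptor PPARγ, together with a Cre recombinase under the CD11c promoter, which is active in alveolar macrophages and also in dendritic cells. WT mice carried the same floxed alleles without Cre. Each group had 2 biological replicates, each a pool of cells from 2 mice on its own array, so the p-values below rest on the spread between pools. KO cells were gated as CD11b-high and described by the submitters as arrested and immature, WT cells were gated as CD11b-low and described as mature, and genotype and gate cannot be told apart.

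All values are on the log2 scale. Differences are KO minus WT with the standard error (SE) of limma, a linear model that shares information on variance across genes, and a gene was called when its p adjusted over all 18782 genes was under 0.05. Pparg measured 9.59 and 9.73 in the KO arrays and 9.69 and 9.75 in the WT arrays. Its difference of -0.06 ± 0.10 (limma adjusted p = 0.790) does not check the labels, because it is unknown here whether these probes fall inside the deleted exons. Of 10 alveolar macrophage markers 3 were called lower in KO and 0 higher: Krt79 (-6.19 ± 0.50, adjusted p = 7.86e-04), Siglecf, the gene of a surface protein used in the sort (-3.27 ± 0.17, adjusted p = 1.64e-04), and Mrc1 (-0.44 ± 0.09, adjusted p = 0.0276). Marco (-2.62 ± 0.80) and Fabp4 (-2.07 ± 0.68) did not pass, with WT arrays far apart at 7.22 and 4.43 for Marco and 7.57 and 5.21 for Fabp4, whereas Chil3 read 11.18 and 11.16 in KO and 11.07 and 11.19 in WT. Car4 (-0.32 ± 0.10), Plet1 (-0.04 ± 0.09), Atp6v0d2 (-0.00 ± 0.09) and Itgax (0.24 ± 0.09) also did not pass. Over all genes 6.86% were called lower. Of 6 general macrophage markers Fcgr1 (-0.66 ± 0.11) and Mertk (-0.48 ± 0.11) were lower, Csf1r was higher (0.84 ± 0.11), and Adgre1, Cd68 and Lamp2 did not pass. The calls of Mrc1 and Mertk were lost whichever array was left out, and that of Fcgr1 without KO replicate 2. The median over all probe sets was 3.14 in each array.

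Cells enter mitosis when cyclin-bound Cdk1 becomes active, and leave it when the anaphase-promoting complex, a ubiquitin ligase, marks cyclins and securin for destruction. Most of the genes involved are transcribed mainly from late S phase to mitosis, so their messages are scarce in cells that do not cycle. Alveolar macrophages are known to maintain themselves in the adult lung by local division.

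Mitosis genes were lower in KO macrophages in every complex examined. Of the 48 measured genes 43 were called lower, 0 higher and 5 did not pass the test, while 6.86% of all genes were called lower and 7.41% higher. The median difference was -1.21, a 2.31-fold lower signal, against -0.01 over all genes. All 48 differences were negative, against 9945 of all 18782 genes. Of the called genes 34 were lower by at least 1 on the log2 scale, against 410 of all genes, called or not. Both KO arrays lay below both WT arrays in 46 of 48 genes, against 30.0% of all genes. The mean over the 48 genes was 4.27 in KO replicate 1 and 3.95 in KO replicate 2, against 5.35 in WT replicate 1 and 5.34 in WT replicate 2, while the mean over all genes was between 4.31 and 4.33 in each array. Against a difference of 0.5 instead of 0, limma called 31 of the 48 lower, and 1.79% of all genes. Because RNA came from whole sorted populations, fewer dividing cells and less of these messages per cell cannot be told apart.

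**Figure D1:**
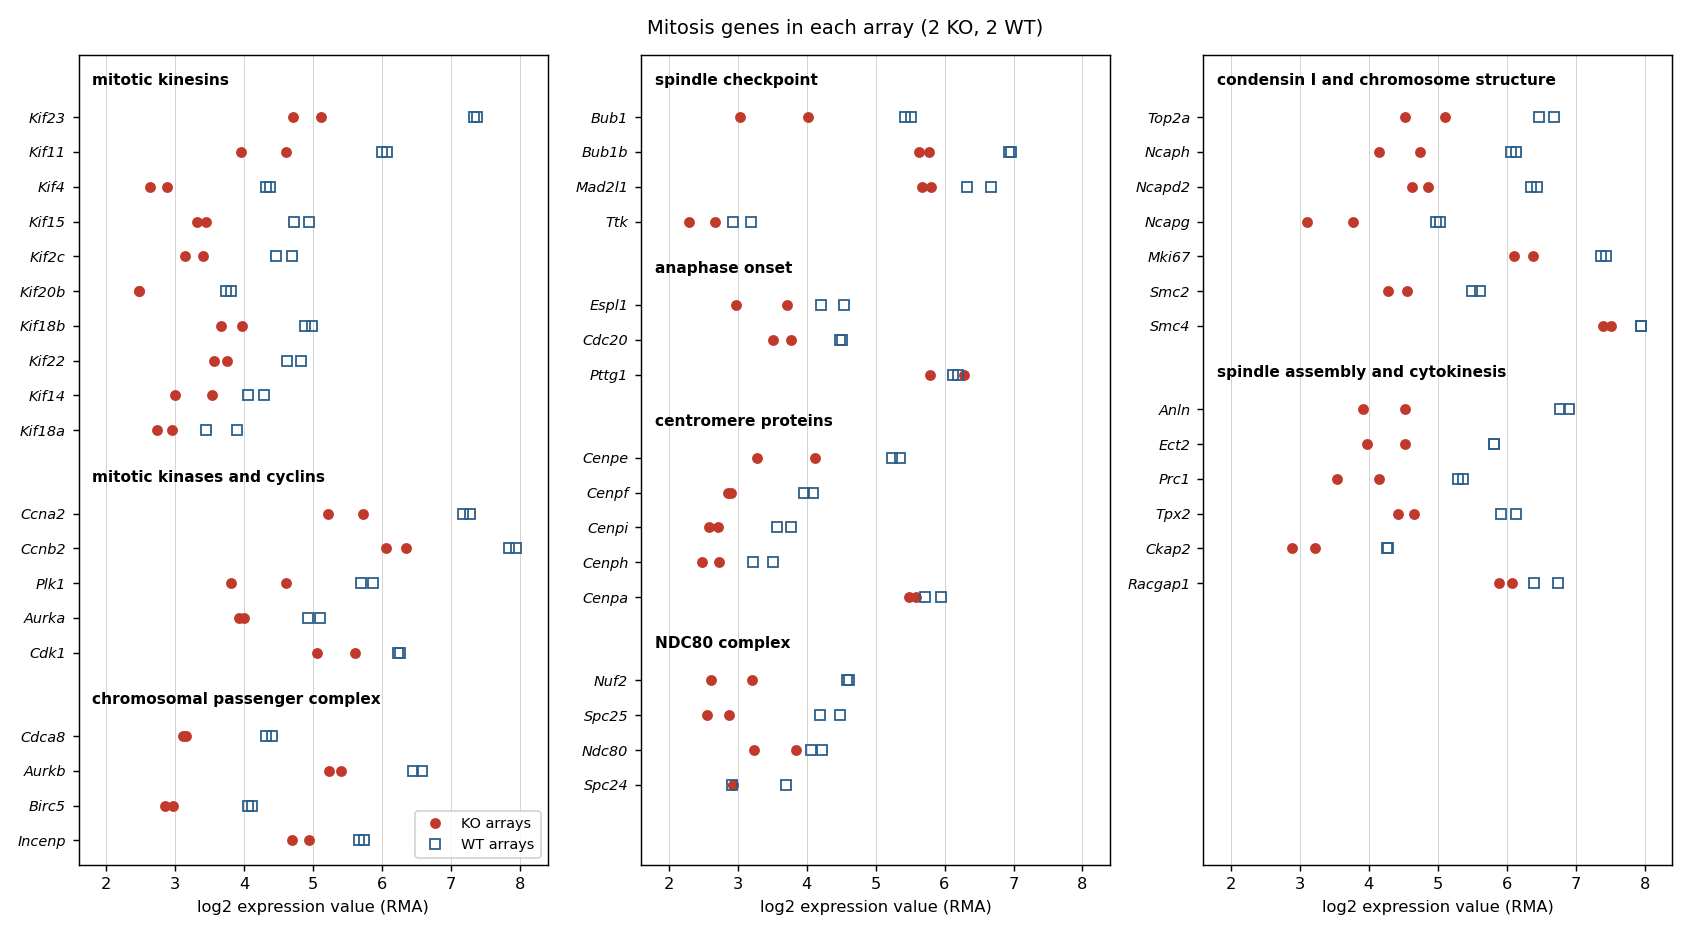
Log2 expression value (RMA, horizontal axis) of each measured mitosis gene in the 2 KO arrays (filled red circles) and the 2 WT arrays (open blue squares), grouped by complex and ordered by difference. KO arrays lie left of WT arrays in 46 of 48 genes, the exceptions being Pttg1 and Spc24.

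The size of the fall varied among the genes. The KO mean lay below the array median of 3.14 in 13 of the 48 genes and the WT mean in 1, and since RMA compresses low values, the size of a fall is not comparable between dim and bright genes. In the order of all 18782 genes from the largest fall upward, 3 of the 48 were among the first 100, 34 among the first 500 and 44 among the first 1000. The 3 were Anln, Kif23 and Bub1. Adjusted p-values of the 43 called genes ran from 2.83e-04 to 0.0464. When each array was left out in turn, 35 of the 43 stayed called each time, and the total called lower was 40 and 35 with KO replicate 1 or KO replicate 2 left out, and 39 and 38 with WT replicate 1 or WT replicate 2 left out. In each such fit the group with a lone array is assumed to vary like the other.

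The promoters of many of these genes carry a cell cycle genes homology region (CHR), the letters TTTGAA, known as a binding element of the MuvB complexes that repress cell cycle genes in resting cells and activate them in late cell cycle phases. They often carry it beside CCAAT boxes, known as binding sites of NF-Y. RefSeq promoter windows of build GRCm38.p6, running from 250 bases before to 50 bases after an annotated start, were found for 42 of the 48 genes, with 2 windows each for Ect2 and Prc1. Searched on both strands, TTTGAA was in 34 of the 44 windows (77.3%), against 14.8% of the 18125 windows of all measured genes. In 29 windows (65.9%) it began within 50 bases of the start, against 3.79%. CCAAT was in 33 windows (75.0%), against 37.5%, and both motifs were in 29 (65.9%), against 5.89%. The E2F letters TTTGGCGC, TTTCCCGC, TTTGCCGC or TTTCGCGC were in 5 windows (11.4%), against 3.06%. These shares describe letters in a window, and binding was not measured. The windows of Cenpa and Ttk, which did not pass the expression test, held both TTTGAA and CCAAT. Of the others not past it, the window of Ndc80 held TTTGAA, that of Pttg1 neither, and Spc24 had no window. Among called genes, the windows of Birc5, Kif18a, Mad2l1, Ncaph and Nuf2 held neither TTTGAA nor CCAAT. Those of Bub1, Cenpe, Cenph and Cenpi lacked TTTGAA, and those of Anln, Kif15, Kif20b and Kif2c lacked CCAAT.

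Below are 100 bases before and 30 bases after the annotated start, where the farthest TTTGAA ends, of the 4 genes with the largest falls, taking 1 per complex, whose single window held both motifs. Capitals mark TTTGAA and CCAAT on either strand, so that TTCAAA and ATTGG are the reverse forms. TTTGAA began at base 3 of the annotated transcript in Kif23, 5 in Ccnb2 and 25 in Spc25, and its reverse form began 23 bases before the start in Top2a.
Kif23 at chr9:61946770-61946899, minus strand: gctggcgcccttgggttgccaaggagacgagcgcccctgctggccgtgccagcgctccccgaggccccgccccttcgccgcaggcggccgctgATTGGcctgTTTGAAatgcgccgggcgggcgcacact
Top2a at chr11:99024160-99024289, minus strand: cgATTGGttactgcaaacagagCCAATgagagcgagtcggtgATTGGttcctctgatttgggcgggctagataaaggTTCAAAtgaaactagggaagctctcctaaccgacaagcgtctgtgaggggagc
Ccnb2 at chr9:70421525-70421654, minus strand: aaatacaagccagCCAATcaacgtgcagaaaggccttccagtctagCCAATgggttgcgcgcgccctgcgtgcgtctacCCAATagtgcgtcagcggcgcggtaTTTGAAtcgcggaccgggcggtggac
Spc25 at chr2:69206184-69206313, minus strand: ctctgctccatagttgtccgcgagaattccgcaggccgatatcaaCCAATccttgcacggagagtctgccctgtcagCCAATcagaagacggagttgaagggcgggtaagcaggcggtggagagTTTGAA

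Mitotic kinesins, the motors that move along spindle microtubules or shorten them, were all lower in KO. All 10 measured were called, with a median of -1.30. Kif23, which bundles microtubules of the central spindle as part of centralspindlin, read 5.11 and 4.71 in the KO arrays and 7.38 and 7.33 in the WT arrays. It was 5.46-fold lower in KO (-2.45 ± 0.15, limma adjusted p = 2.83e-04), with KO arrays far below WT arrays. Kif11, which pushes the spindle poles apart, read 4.60 and 3.96 in KO and 6.00 and 6.07 in WT (-1.75 ± 0.20, adjusted p = 0.00302). The next differences were those of the chromosome-bound motor gene Kif4 (-1.58 ± 0.12), of Kif15, whose motor assists Kif11 in spindle separation (-1.45 ± 0.12), of the microtubule depolymerase gene Kif2c (-1.31 ± 0.14) and of the cytokinesis motor gene Kif20b (-1.29 ± 0.10). Kif18b (-1.12 ± 0.13), Kif22, whose product moves chromosome arms (-1.07 ± 0.12), and the cytokinesis motor gene Kif14 (-0.91 ± 0.20) were lower by less.

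Kif18a, whose motor damps chromosome oscillation at the metaphase plate, had the kinesin difference nearest to 0. Its KO mean of 2.84 lay below the array median of 3.14, as did those of Kif4 (2.76) and Kif20b (2.48). Kif18a read 2.95 and 2.74 in KO and 3.44 and 3.90 in WT (-0.83 ± 0.17, adjusted p = 0.0250). The groups did not overlap, but the call was lost without KO replicate 1 (adjusted p = 0.0844), KO replicate 2 (0.146) or WT replicate 2 (0.0533). Kif14 (adjusted p = 0.0288) was lost without KO replicate 2 (0.0906) or WT replicate 2 (0.0932).

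**Figure D2:**
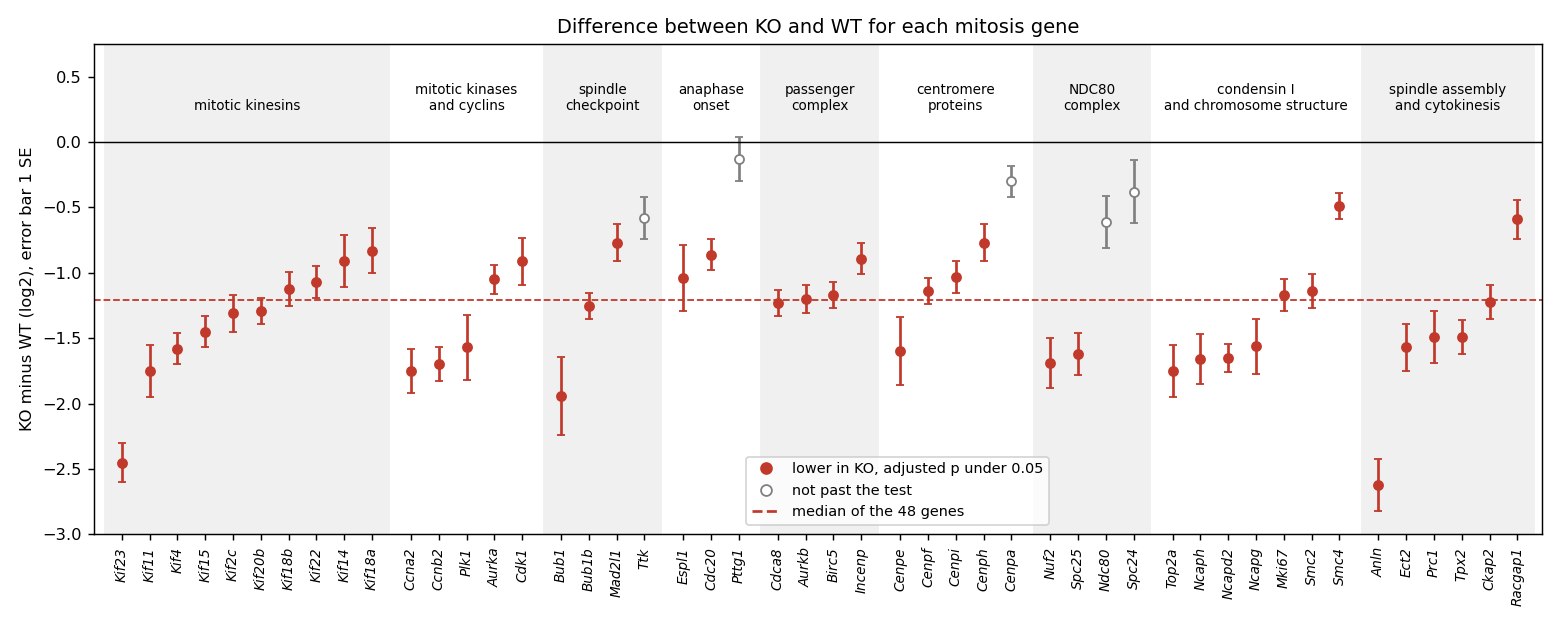
KO minus WT difference (log2, vertical axis) of each measured mitosis gene with 1 SE from limma, grouped by complex. Filled points passed the test (43 genes) and open points did not (5 genes), and the dashed line is the median of -1.21.

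The kinases and cyclins that drive mitosis were lower in KO, all 5 measured being called, with a median of -1.57. Ccna2, which encodes cyclin A2 of S and G2 phase, read 5.72 and 5.22 in KO and 7.17 and 7.28 in WT (-1.75 ± 0.17, limma adjusted p = 0.00161). Ccnb2, a mitotic cyclin gene, read 6.34 and 6.05 in KO and 7.84 and 7.94 in WT (-1.70 ± 0.13, adjusted p = 6.27e-04). Both cyclin genes were more than 3-fold lower, by 3.37 and 3.24. Plk1, the gene of a kinase of mitotic entry and centrosome maturation, differed by -1.57 ± 0.25, and Aurka, whose kinase acts at spindle poles, by -1.05 ± 0.11. Their partner Cdk1, the catalytic subunit that cyclins activate, showed the smallest difference, with 5.61 and 5.06 in KO and 6.26 and 6.23 in WT (-0.91 ± 0.18, adjusted p = 0.0225). The Cdk1 call was lost when KO replicate 2 (adjusted p = 0.0501) was left out, and likewise for WT replicate 1 (0.0748) and WT replicate 2 (0.0559).

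The spindle checkpoint delays anaphase until every kinetochore is attached. Of its 4 genes 3 were called lower, with a median of -1.01. Bub1, a kinetochore kinase gene, read 4.02 and 3.04 in KO and 5.52 and 5.43 in WT (-1.94 ± 0.30, limma adjusted p = 0.00828). Its KO arrays were 0.98 apart, the widest gap between KO arrays among the 48 genes, and both stayed below WT. Bub1b, which encodes the checkpoint protein BubR1, read 5.78 and 5.63 in KO and 6.97 and 6.94 in WT (-1.25 ± 0.10, adjusted p = 8.42e-04). Mad2l1, the gene of the inhibitor that binds Cdc20, differed by -0.77 ± 0.14 (adjusted p = 0.0169), without KO replicate 1 at 0.0750 and without KO replicate 2 at 0.107. A further probe set of Mad2l1 read 5.37 and 5.46 in KO and 5.41 and 5.90 in WT, where the groups overlapped. Ttk, the gene of the kinase that starts checkpoint signalling, read 2.67 and 2.30 in KO and 2.94 and 3.19 in WT, a difference of -0.58 ± 0.16 that did not pass (adjusted p = 0.0625). Its WT mean was below the array median of 3.14, the only such case among the 48 genes.

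Anaphase begins when Cdc20 activates the anaphase-promoting complex, securin is destroyed and separase cuts cohesin. Of the 3 measured genes 2 were called lower. Cdc20 read 3.52 and 3.77 in KO and 4.49 and 4.52 in WT (-0.86 ± 0.12, limma adjusted p = 0.00541). Espl1, the separase gene, read 3.71 and 2.98 in KO and 4.21 and 4.55 in WT (-1.04 ± 0.25, adjusted p = 0.0400), and did not pass without KO replicate 2 (0.111), WT replicate 1 (0.0561) or WT replicate 2 (0.123), which left 1 called gene here. Pttg1, the securin gene, read 6.28 and 5.79 in KO and 6.20 and 6.13 in WT. One KO array lay above both WT arrays and the other below them, and the difference was -0.13 ± 0.17 (95% interval -0.54 to 0.28, adjusted p = 0.709). Without KO replicate 2 it was 0.12. The interval includes 0 and does not reach the median difference of the 48 genes.

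The chromosomal passenger complex, which corrects faulty attachments and guides cytokinesis, was lower as a whole, with 4 of 4 genes called in the full fit and in each fit with 1 array left out. Its differences were the most alike of the complexes, between -1.23 and -0.89. The KO means of Birc5 (2.91) and Cdca8 (3.13) lay below the array median of 3.14, in the range where falls are compressed. Cdca8, which encodes borealin, read 3.12 and 3.15 in KO and 4.32 and 4.40 in WT (-1.23 ± 0.10, limma adjusted p = 7.08e-04). Aurkb, the gene of its kinase, read 5.40 and 5.23 in KO and 6.45 and 6.58 in WT (-1.20 ± 0.11, adjusted p = 0.00131). Birc5, which encodes survivin, differed by -1.17 ± 0.10. The scaffold gene Incenp read 4.94 and 4.70 in KO and 5.67 and 5.74 in WT (-0.89 ± 0.12, adjusted p = 0.00483).

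Centromere and kinetochore genes differed more among themselves than those of the passenger complex. Of 5 measured genes for centromere proteins 4 were called lower, with a median of -1.03. The KO means of Cenpf (2.88), Cenpi (2.65) and Cenph (2.61) lay below the array median of 3.14, in the range where falls are compressed. Cenpe, the gene of a kinetochore motor that carries chromosomes to the metaphase plate, read 4.12 and 3.28 in KO and 5.24 and 5.36 in WT (-1.60 ± 0.26, limma adjusted p = 0.0102). Cenpf, the gene of a large protein of the outer kinetochore, read 2.86 and 2.91 in KO and 4.09 and 3.96 in WT (-1.14 ± 0.10, adjusted p = 0.00114). The inner kinetochore genes Cenpi (-1.03 ± 0.12) and Cenph (-0.77 ± 0.14, adjusted p = 0.0178) were also lower, the second not without KO replicate 2 (0.105) or WT replicate 1 (0.0669). Cenpa, which encodes the histone H3 variant that marks centromeres, read 5.58 and 5.49 in KO and 5.95 and 5.72 in WT. Its KO arrays lay just below the WT arrays, and the difference of -0.30 ± 0.12 (95% interval -0.58 to -0.02) did not pass (adjusted p = 0.164).

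The NDC80 complex joins the kinetochore to microtubules through 4 subunits, and its genes split evenly between called and not called. Nuf2 read 3.21 and 2.62 in KO and 4.62 and 4.58 in WT (-1.69 ± 0.19, limma adjusted p = 0.00271). Spc25 read 2.88 and 2.55 in KO and 4.49 and 4.19 in WT (-1.62 ± 0.16, adjusted p = 0.00148). Their KO means, 2.91 for Nuf2 and 2.72 for Spc25, lay below the array median of 3.14. Ndc80, the gene of the subunit that binds the microtubule with Nuf2, read 3.84 and 3.24 in KO and 4.06 and 4.23 in WT, a difference of -0.61 ± 0.20 (adjusted p = 0.109) that passed without KO replicate 1 (-0.91, adjusted p = 0.0280) and was -0.31 without KO replicate 2 (adjusted p = 0.294). Spc24 read 2.93 and 2.93 in KO and 3.70 and 2.92 in WT. Its WT arrays lay 0.77 apart with the lower one level with KO, giving -0.38 ± 0.24 (95% interval -0.96 to 0.20, adjusted p = 0.391), -0.77 without WT replicate 2 (adjusted p = 0.0131) and 0.00 without WT replicate 1 (adjusted p = 0.991). Whether the subunits differ from each other was not tested.

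Condensin I compacts chromosomes with a pair of SMC ATPases and 3 further subunits. The 3 subunit genes particular to condensin I were lower by like amounts, Ncaph by -1.66 ± 0.19, Ncapd2 by -1.65 ± 0.11 and Ncapg by -1.56 ± 0.21. Ncaph read 4.74 and 4.15 in KO and 6.13 and 6.06 in WT (limma adjusted p = 0.00297). Of the ATPase genes, which serve condensin II too, Smc2 differed by -1.14 ± 0.13. Smc4 read 7.51 and 7.40 in KO and 7.95 and 7.95 in WT, the smallest called difference of all 48 genes (-0.49 ± 0.10, adjusted p = 0.0217). Its groups did not overlap, yet no fit with 1 array left out called it, with an adjusted p of 0.0721 when KO replicate 1 was omitted, 0.118 for KO replicate 2, 0.0829 for WT replicate 1 and 0.0706 for WT replicate 2. Top2a, the gene of the topoisomerase that untangles sister DNA, read 5.11 and 4.53 in KO and 6.46 and 6.69 in WT (-1.75 ± 0.20, adjusted p = 0.00274). Mki67, whose product coats mitotic chromosomes and is the usual marker of dividing cells, read 6.38 and 6.10 in KO and 7.37 and 7.44 in WT, 2.25-fold lower (-1.17 ± 0.12, adjusted p = 0.00201). All 7 genes of this group were called.

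Genes of spindle assembly and cytokinesis included the largest difference of the 48. Anln, which encodes anillin, the scaffold of the contractile ring, read 4.52 and 3.91 in KO and 6.90 and 6.77 in WT, and was 6.15-fold lower in KO (-2.62 ± 0.20, limma adjusted p = 6.65e-04). Ect2, the gene of the exchange factor that activates RhoA for the ring, read 4.52 and 3.97 in KO and 5.81 and 5.81 in WT (-1.57 ± 0.18, adjusted p = 0.00292). Prc1, which cross-links microtubules of the midzone, differed by -1.49 ± 0.20, the spindle assembly factor gene Tpx2 by -1.49 ± 0.13 and the spindle protein gene Ckap2 by -1.22 ± 0.13. Racgap1, whose product binds that of Kif23 in centralspindlin, showed the smallest difference of the group, with 6.07 and 5.89 in KO and 6.39 and 6.74 in WT (-0.59 ± 0.15, adjusted p = 0.0464). All 6 genes were called, but Racgap1 was not without KO replicate 1 (adjusted p = 0.115), KO replicate 2 (0.216) or WT replicate 2 (0.139).

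The KO arrays were not alike in these genes. KO replicate 1 read above KO replicate 2 in 42 of 48 genes (87.5%), against 49.4% of all genes, by a median of 0.27, and by at least 0.5 in 16 genes. The largest gaps were those of Bub1 (0.98), Cenpe (0.83), Plk1 (0.79) and Espl1 (0.72), while Ckap2 (-0.33) and Cdc20 (-0.25) went the other way. The median gap regardless of sign was 0.28 between KO arrays and 0.11 between WT arrays, and over all genes it was 0.12 in both groups. WT replicate 1 read above WT replicate 2 in 25 of the 48. The difference between the KO arrays thus went one way across complexes, and the median KO minus WT difference was -1.29 with KO replicate 1 left out and -1.17 with KO replicate 2 left out.

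**Figure D3:**
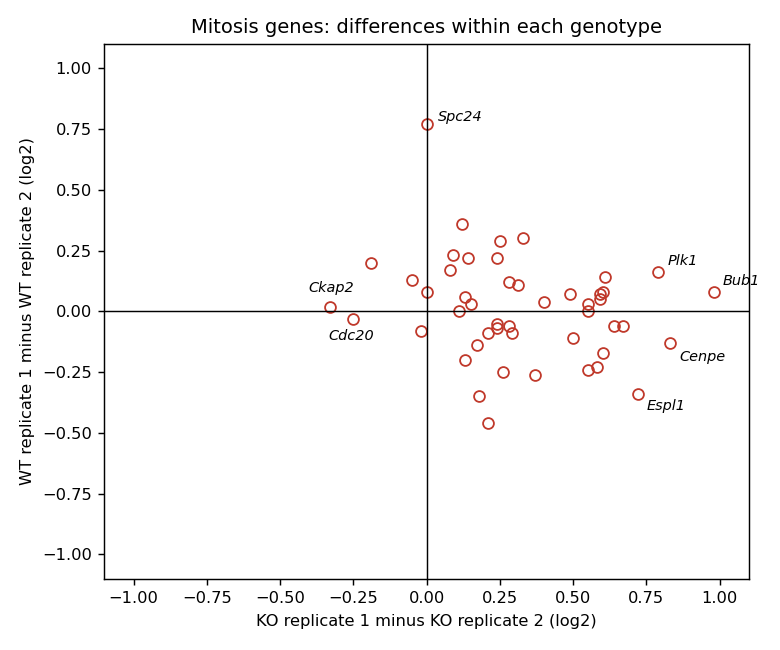
Gap between the 2 KO arrays (replicate 1 minus replicate 2, log2, horizontal axis) against the gap between the 2 WT arrays (vertical axis) for each measured mitosis gene. Points lie right of 0 in 42 of 48 genes and are spread on both sides of 0 on the vertical axis.

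Genes that work beside these differed less evenly. Of 23 measured other kinetochore and checkpoint genes 11 were called lower and 0 higher, with a median of -0.50. They were led by Knl1, the scaffold on which checkpoint proteins assemble (-1.80 ± 0.12, limma adjusted p = 3.36e-04), Ska3 of the microtubule-binding SKA complex (-1.12 ± 0.13) and Cenpm (-1.11 ± 0.16). Fits lacking 1 of the KO arrays called 6 (no KO replicate 1) and 5 (no KO replicate 2), and the fit lacking WT replicate 1 called 7. Of 24 other spindle, centrosome and cytokinesis genes 16 were lower, with a median of -0.76, led by the abscission gene Cep55 (-2.28 ± 0.11, adjusted p = 1.31e-04), Aspm of the spindle poles (-1.32 ± 0.12) and Dlgap5 (-1.56 ± 0.15). Ckap2l, which encodes a relative of Ckap2 on the spindle, was the only one higher in KO (0.77 ± 0.12, adjusted p = 0.00906; 0.0512 without KO replicate 1).

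Among 18 genes of condensin II and cohesin, the ring that holds sister chromatids, 9 were lower and 0 higher, with a median of -0.36. Those with the smallest p were Sgo2a, a protector of cohesin (-1.27 ± 0.13), the cohesin acetyltransferase gene Esco2 (-1.62 ± 0.20) and Ncapd3 of condensin II (-0.75 ± 0.09, limma adjusted p = 0.00385). The cohesin core genes were lower by less or did not pass, Smc3 by -0.46 ± 0.10 (adjusted p = 0.0269, at least 0.0875 with any 1 array left out) and Rad21 by -0.31 ± 0.11 (adjusted p = 0.134), 2 genes chosen after their values were seen. Leaving out KO replicate 1 or WT replicate 2 gave 5 lower genes, leaving out KO replicate 2 gave 4, and leaving out WT replicate 1 gave 3.

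The subunits of the anaphase-promoting complex were near the level of all genes. Of 15 genes for its core and cofactors 1 was lower, at 6.67% close to the 6.86% of all genes, and the median was -0.06. That gene was Fzr1, which encodes the coactivator Cdh1 of late mitosis and G1 (-0.55 ± 0.10, limma adjusted p = 0.0159), and it passed in no fit with 1 array left out. Kinesins of transport in the cytoplasm and cilia had a median of 0.06, with differences in both directions. Over all genes 6.86% were called lower and 7.41% higher, so 1 lower gene among 25 such kinesins is near the first share. Of 25 such genes 1 was lower, Kif13a (-0.50 ± 0.10, adjusted p = 0.0197; not past the test without KO replicate 1, KO replicate 2 or WT replicate 1), and 5 were higher: Kif21a (0.96 ± 0.13), Kif3a (0.94 ± 0.12), Kif1c (0.60 ± 0.12), Kifc3 (0.55 ± 0.10) and Kif9 (0.50 ± 0.10). Of these only Kif21a and Kif3a stayed called whichever array was left out, and 2 higher genes remained when KO replicate 1 was left out or when WT replicate 1 was.

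Of 18 genes of mitotic entry control and cell cycle transcription 10 were lower, with a median of -0.65. The 2 called higher compare with 7.41% of all genes, and 1 was left with either KO array omitted. Lower genes were led by E2f8, a repressor of the E2F family (-1.22 ± 0.12, limma adjusted p = 0.00139), Mastl, whose kinase holds back the phosphatase that opposes Cdk1 (-1.51 ± 0.17), and Cdc25b, whose phosphatase activates Cdk1 (-1.15 ± 0.15). The genes higher in KO were Wee1, the gene of the kinase that inhibits Cdk1 (1.08 ± 0.14, adjusted p = 0.00404, called in every fit with 1 array left out), and Lin54, which encodes the MuvB subunit that binds CHR elements (0.80 ± 0.14, adjusted p = 0.0152). Lin54 was lost without KO replicate 1 or KO replicate 2, with an adjusted p of up to 0.0910. The other MuvB genes Lin9 (-0.04 ± 0.16), Lin37 (-0.11 ± 0.10) and Lin52 (-0.24 ± 0.13) did not pass and were chosen after their values were seen. Of 33 DNA replication genes 23 were lower and 0 higher, with a median of -0.91, led by the ligase gene Lig1 (-1.55 ± 0.10, adjusted p = 3.93e-04) and the helicase genes Mcm7 and Mcm5, and KO replicate 1 read above KO replicate 2 in 29 of the 33. Differences between the lists were not tested.

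**Figure D4:**
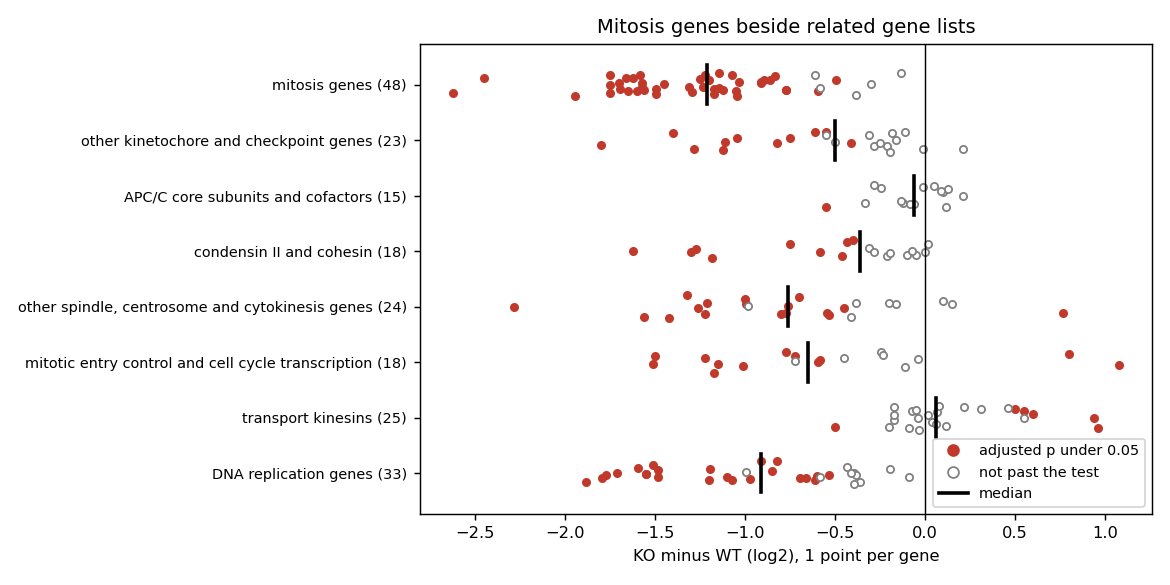
KO minus WT difference (log2, horizontal axis) of each gene in the mitosis set and in 7 related lists, with the number measured in parentheses, filled where the gene passed the test and open where not, and a bar at each median. The medians run from -1.21 for the mitosis genes to 0.06 for transport kinesins.

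Markers of other cells that a sort of lung could hold were examined beside these results. Over all genes 6.86% were called lower and 7.41% higher. In a list of up to 8 genes, 0 or 1 called gene is near these shares and says little about the cells present. Of markers of T and NK cells, B cells, epithelium, erythroid cells and granulocytes, 0 of 7, 0 of 5, 0 of 8, 0 of 3 and 0 of 7 measured genes were called in either direction. Cd3e, a defining T cell gene, and Cd79a, a defining B cell gene, measured 3.08 and 3.20 (Cd3e) and 3.29 and 3.49 (Cd79a) in KO, and 3.02 and 2.91 (Cd3e) and 3.54 and 3.26 (Cd79a) in WT, near the array median. Some listed genes lay far above it without being called. Cd2 of the T and NK list read 9.24 and 9.22 in KO and 9.55 and 9.58 in WT. Clec9a of the dendritic cell list read 5.79 and 6.99 in KO and 4.56 and 5.58 in WT (1.32 ± 0.46). Ccr7 of the same list read 5.15 and 5.29 in KO and 5.18 and 4.85 in WT. The airway gene Scgb1a1 read 6.48 and 6.63 in KO and 6.89 and 4.26 in WT, and the granulocyte gene Cxcr2 read 5.12 and 5.47 in KO and 4.77 and 3.92 in WT. Endothelial and stromal markers had 1 of 8 genes higher, Vwf (1.16 ± 0.10, limma adjusted p = 0.00103), and dendritic cell markers 1 of 7, Cd209a (2.04 ± 0.19, adjusted p = 0.00127). Markers of monocytes and interstitial macrophages differed between the groups, all 6 being called higher in KO. The mean over the list was 7.69 to 7.96 in the KO arrays and 4.20 to 4.59 in the WT arrays. The 6 included the complement genes C1qb (6.48 ± 0.34), C1qc (4.84 ± 0.13) and C1qa (3.77 ± 0.12). The calls of Ccr2 and Cd14 were lost without KO replicate 1 and without KO replicate 2. Itgam, which encodes CD11b, was higher by 5.76 ± 0.14, as the gates were set. The part of these cells or of the gate in the lower mitosis genes was not tested.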

How the data were processed

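Gene expression was measured in 4 samples of sorted alveolar macrophages, 2 KO and 2 WT. The deposited values are log2 expression values per probe set, made by the authors; per the submitters' processing notes, the tools were RMA and R 2.15.2. RMA corrects background, gives all arrays 1 distribution and summarises probes, so a change shared by most transcripts would not show, and low values are compressed. For RMA, settings were not stated. Scanner files were not used.

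Of 28371 probe sets, 21158 had 1 gene symbol in the platform annotation, 1881 several and 5332 none listed. Symbols were checked through Entrez identifiers (21128 found, 0 changed). With the highest-mean probe set per gene, 18782 genes were tested with no filter, by limma 3.58.1 in R 4.3.3 with genotype as the only term (2 residual and 4.16 prior degrees of freedom), two-sided, with Benjamini-Hochberg adjustment. The number of arrays limits the precision; an exact permutation of 2 against 2 arrays cannot go below p = 0.333, so none was used.

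The mitosis genes, the lists and the tests were chosen with earlier results of these data known. Array values are given, per complex, for the 2 genes with the largest and the 1 with the smallest difference and for each gene not called; Mki67 was added after its values were seen. In other lists up to 3 genes with the smallest p per direction are named, and all where 5 or fewer were called. Marker genes, and a few others said to be so, were chosen after their values were seen. Alternatives were leaving out each array, the replicate number as a block, no dim genes, an intensity trend, no moderation, a minimum difference of 0.5, cyclic loess, centring on bright genes, the mean of probe sets and array weights. Another background correction and a slide block were not run, as they need scanner files.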

Additional observations from a re-analysis of the deposited data

How the results depend on the processing

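The 48 differences kept their sign under every alternative run, except Pttg1 without KO replicate 2 (0.12, range with 1 array left out -0.37 to 0.12) and Spc24 without WT replicate 1 (0.00, range -0.77 to 0.00). The count of mitosis genes called lower was 43, and 0 were called higher under any alternative. It ranged from 35 to 40 with 1 array left out. With the replicate number as a block it was 41, losing Espl1 (adjusted p = 0.0552) and Racgap1 (0.0694), the same genes lost with cyclic loess (0.0516 and 0.0624). The gap between the KO arrays and the gap between the WT arrays did not go together across genes (r = -0.0173, within groups of 2). With 1 gap per group, this value cannot show whether same-numbered samples were handled together. An intensity trend, centring on bright genes, the mean of probe sets and array weights (1 for each array, so no change) gave the same calls. With dim genes left out 40 of the 48 were tested and kept their calls. The median difference lay between -1.29 and -1.15.

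Without moderation of the variance, an ordinary linear model with 2 residual degrees of freedom called 0 mitosis genes and 0 genes in each complex and related list after adjustment, and 33 mitosis genes had p under 0.05 before adjustment (46 with limma). In the same model 3637 of all 18782 genes had such a p, and 3 passed after adjustment. The test against a difference of 0.5 left 3 kinases and cyclins, 0 genes of anaphase onset, 2 centromere genes, 2 other kinetochore genes, 0 of the anaphase-promoting complex, 2 of condensin II and cohesin, 6 other spindle genes, 3 of mitotic entry, 0 transport kinesins and 11 replication genes. Anaphase onset held 1 called gene with the block and with cyclic loess, and centromere proteins 1 with dim genes left out, where fewer were tested. The anaphase-promoting complex held 2 with an intensity trend. With 1 array left out the counts ran from 1 to 2 for anaphase onset, 5 to 8 for other kinetochore genes, 0 to 0 for the anaphase-promoting complex, 3 to 5 for condensin II and cohesin and 0 to 1 for transport kinesins. Where no construction of the alternative shows it, the cause was not tested.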

Other observations

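Kif11, Kif18b, Prc1, Top2a and Mad2l1 had further probe sets, dimmer than those used. Those of Kif11, Kif18b, Prc1 and Top2a (2 for Top2a) stayed at or below 2.60 in all 4 arrays, under the array median of 3.14, with differences between -0.45 and -0.15. Averaging all probe sets of a gene made the differences smaller in each of the 5 genes: -1.05 for Kif11 (limma adjusted p = 0.0229), -0.67 for Kif18b (0.00823), -0.88 for Prc1 (0.00213), -0.79 for Top2a (0.00689) and -0.50 for Mad2l1 (0.0174), all still called lower in KO.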
